A study of Homo sapiens with 10 samples.

Results

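The data describe 29 long non-coding RNA (lncRNA) genes that are hosts of small nucleolar RNAs (snoRNAs), taken from a table of 64940 genes. They were chosen by name, as every gene called SNHG with a number together with GAS5, ZFAS1, EPB41L4A-AS1 and DANCR. The rule used no measured value, but it was set with earlier results of these data known. In the reference annotation 27 of the 29 genes held at least 1 small RNA inside their span. SNHG27 and SNHG28 held none in RefSeq, and strand was not compared.

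A snoRNA host is a gene whose introns carry snoRNAs. The spliced RNA leaves the nucleus or decays, while the excised intron is debranched and trimmed to a snoRNA that is bound by its own set of proteins. Box C/D snoRNAs guide methylation of the ribose in ribosomal RNA, box H/ACA snoRNAs guide the change of uridine to pseudouridine, and small Cajal body RNAs do the same for spliceosomal RNAs. Host lncRNAs are known for starting with a run of pyrimidines, the terminal oligopyrimidine (TOP) motif shared with ribosomal protein genes, and for spliced RNAs that are degraded by nonsense-mediated decay when they are translated.

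RNA sequencing covered 2 control and 2 oeDAZL libraries, all made from H9, a line of human embryonic stem cells (hESCs). The oeDAZL libraries came from cells that overexpress DAZL, an RNA-binding protein of germ cells, and their labels call them hPGCLCs (human primordial germ cell-like cells). The labels describe the controls as wild-type SD cells, that is, cells differentiated spontaneously from hESCs, whereas the deposited design text calls them wild-type PGCLCs. If the labels hold, the effect of DAZL and that of the culture cannot be told apart. The sources used here for these libraries give neither the promoter that drives DAZL nor the number of clones, and nothing says that the replicates came from separate cultures, so every p-value covers only the spread between these libraries. In addition, 6 miRNA libraries belong to the series and were not analysed here.

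The values are TPM, a measure of transcript abundance whose values are scaled by gene length and to a common total in each library. This unit hides how many reads lie behind a value, so that depth is unknown and precision rests on the spread between 2 replicates. Differences are given as the log2 fold change of oeDAZL over control on the log2(TPM + 1) scale, which understates changes of low genes, from limma fitted over the 16687 genes with a mean of at least 1 TPM. A gene is said to rise or fall where limma's unadjusted p was at most 0.05, and the p-values printed are those after Benjamini-Hochberg adjustment over all of these genes. DAZL itself, the check of the labels, had 0 and 0.0333 TPM in control against 102 and 101 TPM in oeDAZL. The libraries had 16342 to 17239 genes at 1 TPM or more and 12.6% to 14.1% of their TPM in mitochondrial genes. Of 10 markers of primordial germ cells, all were above 0 in every library and 9 had a mean of at least 1 TPM. NANOS3 reached no more than 1.66 TPM, SOX17 3.35 TPM and PRDM1 2.32 TPM. Over the 4 libraries TFAP2C had a mean of 49.4 TPM, PDPN 48.4 TPM and ALPL 47.1 TPM. The means were 9.21 TPM for CXCR4, 6.65 TPM for KIT, 1.38 TPM for DPPA3 and 0.654 TPM for DND1. In bulk RNA, fewer cells of a type and less RNA per cell cannot be told apart.

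The first transcribed bases of the hosts were read from hg38 because the TOP motif lies at this position. It was searched on the strand of the gene as a C followed by at least 4 C or T. The capitals below mark the unbroken run of pyrimidines from the annotated start, read 5′ to 3′, for the 4 hosts with high or changed levels that carry the motif at one of their annotated starts and for 2 that do not. SNHG29, GAS5, ZFAS1 and SNHG25 are shown from the start of the GENCODE canonical transcript, and SNHG5 and SNHG1 from the RefSeq start of the gene.
SNHG29 (chr17:16439037-16439060, plus strand): CTTTTCattcccgttgttatggag
GAS5 (chr1:173867965-173867989, minus strand): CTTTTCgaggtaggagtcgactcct
ZFAS1 (chr20:49278642-49278666, plus strand): CTTTCgcgtctgcggtgcccggagt
SNHG5 (chr6:85678709-85678733, minus strand): CTTTTacgtcggccttcgcgagcgt
SNHG1 (chr11:62855861-62855885, minus strand): CTCatttttctactgctcgtggtaa
SNHG25 (chr17:64145937-64145961, plus strand): TCCTTTaaaagaacgccatcgacgc

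SNHG25 has a pyrimidine run but starts with T, and SNHG1 has a run of 3, so that neither carries the motif as defined. The motif was present at the canonical start of 4 of the 29 hosts (13.8%), namely SNHG29, GAS5, ZFAS1 and SNHG12. The share was 2.75% over 62700 genes with a start sequence, and 4.73% over the 16609 of these with a mean of at least 1 TPM. It was 2.57% over 1828 other lncRNA genes, 19.1% over 251 protein-coding genes with a small RNA inside and 72% over 82 ribosomal protein genes. These groups also hold only genes with a mean of at least 1 TPM. At the RefSeq start, 6 of 25 hosts carried it (SNHG4, SNHG5, SNHG12, SNHG18, SNHG19 and ZFAS1) against 4.04% of 27305 genes, and 8 hosts carried it at one or the other. Which hosts are counted therefore depends on the annotated start, and the true starts in these cells were not measured.

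The hosts held 144 small RNAs, of which 118 were box C/D, 22 box H/ACA and 4 Cajal body RNAs. SNHG14, a long transcript of the imprinted Prader-Willi region on chromosome 15, held 83 of them, GAS5 held 11, SNHG1 held 8, and 13 hosts held 1 each. Of the 61 small RNAs outside SNHG14, 56 lay in an intron of the canonical transcript, 3 crossed an exon boundary and 2 lay in an exon. Of the 83 in SNHG14, 46 lay within the gene but outside its canonical transcript, the SNORD116 copies among them. The hosts were spread over 14 chromosomes. Their canonical transcripts ran from 311 bases in SNHG25 to 7005 bases in SNHG14, with a median of 1615 bases and 4 exons.

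The host lncRNAs were abundant and their levels were close in the 2 groups. Their summed level was 2501 and 2431 TPM in the control libraries and 2491 and 2530 TPM in the oeDAZL libraries, which is 0.243% to 0.253% of all TPM. SNHG29 made up 38.5% to 40.1% of that sum. Without SNHG29 the sums were 1538 and 1491 TPM in control and 1520 and 1517 TPM in oeDAZL, and the groups overlapped. Over the 4 libraries 6 hosts had a mean of at least 100 TPM, 11 of at least 50 TPM and 20 of at least 10 TPM, whereas SNHG27 and SNHG28 were listed at 0 in every library. Among lncRNA genes, of which 7553 were above 0, hosts took 9 of the 20 highest places and 15 of the 100 highest.

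**Figure D1:**
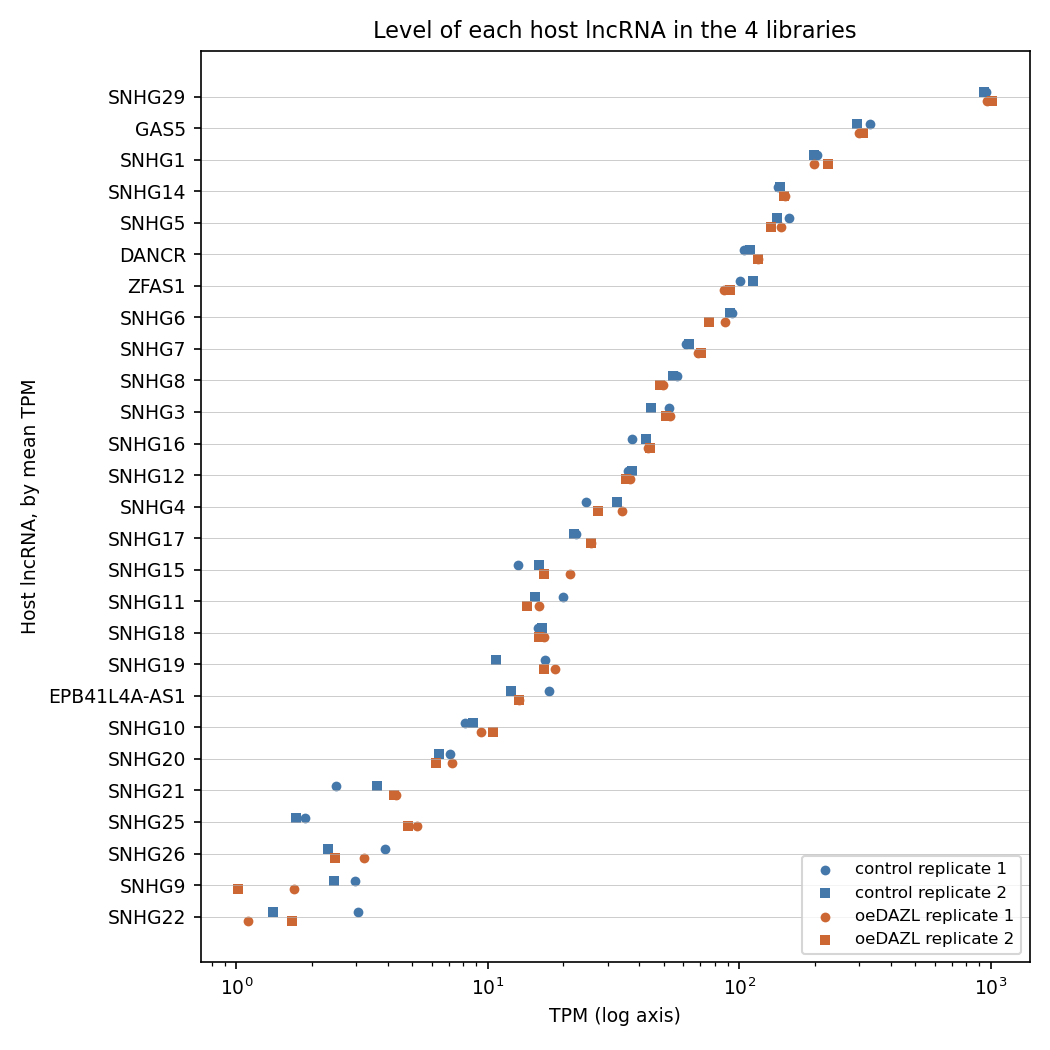
TPM on a log axis of the 27 host lncRNAs above 0 in the 2 control and 2 oeDAZL libraries (replicate 1 as circles, replicate 2 as squares), in order of the mean over the 4 libraries. SNHG29 stands at the top with 940 to 1014 TPM, and the oeDAZL points of SNHG25 lie apart from its control points.

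SNHG29, the host of SNORD49A and SNORD65, had 963 and 940 TPM in control and 971 and 1014 TPM in oeDAZL. Both oeDAZL libraries were the higher ones, but the log2 fold change of 0.06 (standard error 0.05, adjusted p = 0.554 in limma) did not pass the test. GAS5, named for its accumulation in growth-arrested cells, followed at 331 and 295 TPM in control and 299 and 310 TPM in oeDAZL. Its groups overlapped, and the control replicates lay farther apart than the group means. SNHG1, a host of 8 box C/D snoRNAs, was at 203 and 199 TPM in control and 199 and 225 TPM in oeDAZL, again with overlapping groups. In both groups GAS5 lay above SNHG1 in each library, and SNHG29 lay above GAS5.

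The next 2 hosts did not differ from each other beyond their spread. SNHG14, which also runs through the antisense region of UBE3A, was at 142 and 146 TPM in control and 153 and 151 TPM in oeDAZL. SNHG5, a host of box C/D snoRNAs, was at 158 and 141 TPM in control and 146 and 134 TPM in oeDAZL. Of these, SNHG14 had both oeDAZL libraries above both control libraries without passing the test (adjusted p = 0.451 in limma), and SNHG5 had overlapping groups. SNHG6, a host on chromosome 8, was at 93.7 and 91.9 TPM in control and at 87.8 and 75.6 TPM in oeDAZL, and its log2 fold change of -0.19 (standard error 0.08, adjusted p = 0.277) did not pass the test, although it did without oeDAZL replicate 1 (-0.29), and it was -0.079 without oeDAZL replicate 2. Among the 10 highest hosts the ratio of the group means ran from 0.836 in ZFAS1 to 1.12 in SNHG7.

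Over all 27 tested hosts, 15 were higher and 12 lower in oeDAZL by any amount, with a median log2 fold change of 0.06 beside -0.08 over all 16687 genes. Of the 27, 18 lay within 0.2 of 0 on the log2 scale. The groups did not overlap for 14 hosts, with both oeDAZL libraries above the controls for 10 and below for 4. This is 51.9% of the hosts, and over all tested genes the groups did not overlap for 54.4%, with 16% above and 38.4% below. At an unadjusted p of at most 0.05 in limma, 4 hosts rose (SNHG25, SNHG17, SNHG7 and DANCR) and 3 fell (SNHG9, ZFAS1 and SNHG8). These 7 hosts are 25.9% of those tested, where 20.2% of all tested genes passed, 5.02% upward and 15.2% downward. With Benjamini-Hochberg adjustment over all tested genes, 0 hosts had an adjusted p under 0.05 in limma, and 10 genes (0.0599%) did. With median-of-ratios scaling in place of TPM as deposited, the split of hosts past the threshold was 9 higher and 1 lower, where 11.2% of all genes passed upward and 8.2% downward, and with quantile normalization it was 7 and 1, where 8.4% and 9.07% did. The median log2 fold change of the hosts was 0.06 without control replicate 1 and 0.04 without control replicate 2. It was -0.01 without oeDAZL replicate 1 and 0.06 without oeDAZL replicate 2. Over all tested genes the medians were -0.06, -0.10, -0.07 and -0.08 in the same order.

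**Figure D2:**
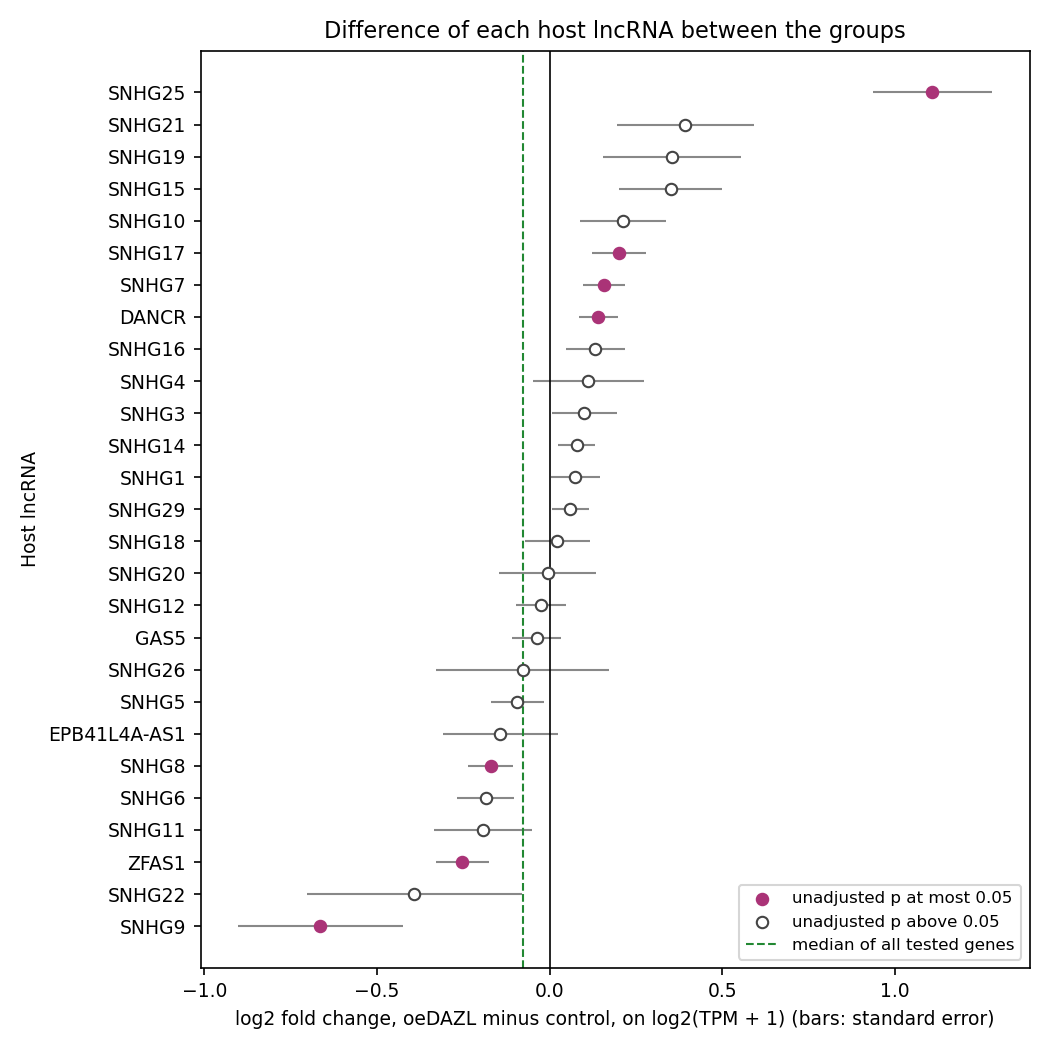
Log2 fold change of oeDAZL over control on the log2(TPM + 1) scale for the 27 tested host lncRNAs, with bars of 1 standard error from limma, 2 libraries a group, ordered by size. Most points lie within 0.2 of 0, SNHG25 stands at 1.11 and SNHG9 at -0.66, and the median of all tested genes is -0.08.

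SNHG25 was the host that rose by more than 2-fold. It is a short gene of 2 exons on chromosome 17 of hg38, from 64145937 to 64146476 on the plus strand, and it holds the box C/D snoRNA SNORD104 and the box H/ACA snoRNA SNORA50C. It had 1.87 and 1.73 TPM in control and 5.24 and 4.83 TPM in oeDAZL. Both oeDAZL libraries lay well above the controls, and the replicates of each group lay close together. The ratio of group means was 2.80 and the log2 fold change 1.11 (standard error 0.17, adjusted p = 0.0896 in limma). Of all tested genes, 0.689% passed p at most 0.05 with a change of 2-fold or more, 0.126% upward and 0.563% downward. SNHG25 stayed past the unadjusted threshold in each of the 12 alternatives in which it was tested, with a log2 fold change from 1.06 to 1.43, whereas each of the other 6 hosts lost the call in at least 1. The level is low, the canonical transcript has 311 bases, and SNORA50C lies in an exon of it, so reads of the spliced host and of SNORA50C cannot be told apart by position. TEX2, the coding gene whose end lies 750 bases past SNHG25, was at 30.4 and 32.2 TPM in control and 33.5 and 34.4 TPM in oeDAZL (log2 fold change 0.11, adjusted p = 0.435 in limma).

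The other 3 hosts that rose did so by less. SNHG17, which holds the SNORA71 family of box H/ACA snoRNAs, was at 22.4 and 22 TPM in control and 25.7 and 25.7 TPM in oeDAZL, a log2 fold change of 0.20 (standard error 0.08, adjusted p = 0.233 in limma). SNHG7, a host of 2 box H/ACA snoRNAs, was at 61.6 and 63.1 TPM in control and 68.4 and 70.8 TPM in oeDAZL, a log2 fold change of 0.16 (standard error 0.06, adjusted p = 0.233). DANCR, named as a non-coding RNA that opposes differentiation and host of SNORA26, was at 105 and 110 TPM in control and 119 and 119 TPM in oeDAZL, a log2 fold change of 0.14 (standard error 0.06, adjusted p = 0.245). For all 3 the groups did not overlap. SNHG17 no longer passed with any 1 library left out, and SNHG7 and DANCR did not without control replicate 1, oeDAZL replicate 1 or oeDAZL replicate 2. The log2 fold changes in these fits were 0.10 to 0.21. All 3 hosts also lost the call with the replicate block and without limma's trend. DANCR lost it with a pseudocount of 0.1 and at a mean of at least 5 TPM as well.

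SNHG7 shares 1482 exon bases with DIPK1B on the other strand. DIPK1B was at 33.4 and 31.5 TPM in control and 24.8 and 26.8 TPM in oeDAZL, a log2 fold change of -0.32 (standard error 0.08, adjusted p = 0.137 in limma), opposite to that of SNHG7, and it did not pass without oeDAZL replicate 1 (-0.26). Whether counting used the strand is not given in the sources used here, and without it reads of a gene and its antisense partner cannot be told apart. In all, 15 hosts share exon bases with a coding gene on the other strand and 6 with one on the same strand. SNHG14 shares 141 exon bases with SNRPN on its own strand, and SNRPN, a protein of spliceosomal particles, was at 301 and 301 TPM in control and 363 and 318 TPM in oeDAZL (log2 fold change 0.17, adjusted p = 0.258). UBE3A, which overlaps SNHG14 on the other strand over 1822 exon bases, was at 47.4 and 48.4 TPM in control and 41.1 and 44.6 TPM in oeDAZL (log2 fold change -0.16, adjusted p = 0.285).

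ZFAS1, named as an antisense RNA at the start of ZNFX1, fell. It had 101 and 114 TPM in control and 87.3 and 92.1 TPM in oeDAZL, with no overlap. The log2 fold change was -0.25 (standard error 0.08, adjusted p = 0.165 in limma), and it did not pass without oeDAZL replicate 1 (log2 fold change -0.21), with median-of-ratios scaling and without limma's trend. ZNFX1, with which it shares 249 exon bases on the other strand, was at 10.4 and 10.5 TPM in control and 10.9 and 10.3 TPM in oeDAZL.

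SNHG8, host of 1 box H/ACA snoRNA, fell from 56.5 and 54.5 TPM in control to 49.9 and 48.5 TPM in oeDAZL, a log2 fold change of -0.17 (standard error 0.07, adjusted p = 0.223 in limma). It shares 2487 exon bases with PRSS12 on the other strand, which was at 131 and 92.8 TPM in control and 99.1 and 111 TPM in oeDAZL, so that the partner was higher than the host in each library and its replicates spread widely. SNHG8 did not pass without control replicate 1, oeDAZL replicate 1 or oeDAZL replicate 2 (-0.14 to -0.19), nor without mitochondrial genes (-0.15), with quantile normalization (-0.13) or with median-of-ratios scaling (-0.071). Nor did SNHG8 pass with the replicate block or without limma's trend. SNHG9, also host of 1 box H/ACA snoRNA, fell from 2.96 and 2.44 TPM to 1.69 and 1.02 TPM, a log2 fold change of -0.66 (standard error 0.24, adjusted p = 0.206 in limma). Its transcript is short at 339 bases and its level low. It no longer passed without control replicate 1 (log2 fold change -0.56) or oeDAZL replicate 2 (-0.46), nor with no filter or with quantile normalization (-0.49).

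Among the hosts that did not pass the test, SNHG15 and SNHG21 had both oeDAZL libraries above both controls with a ratio of group means of 1.30 and 1.40. SNHG15, an RNA known to turn over fast and host of SNORA9, was at 13.2 and 16.0 TPM in control and 21.2 and 16.7 TPM in oeDAZL (log2 fold change 0.35, standard error 0.15, adjusted p = 0.258 in limma). SNHG21, host of SCARNA15, was at 2.50 and 3.63 TPM in control and 4.33 and 4.22 TPM in oeDAZL (log2 fold change 0.39, adjusted p = 0.323). It was 0.19 without control replicate 1 and passed at 0.59 without control replicate 2, while SNHG15 was 0.22 and 0.19 without control replicate 1 and oeDAZL replicate 1 and passed at 0.48 and 0.51 without control replicate 2 and oeDAZL replicate 2. In SNHG15 the oeDAZL libraries differed by more than the gap between oeDAZL replicate 2 and the controls.

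The remaining tested hosts, SNHG3, SNHG4, SNHG10, SNHG11, SNHG12, SNHG16, SNHG18, SNHG19, SNHG20, SNHG22, SNHG26 and EPB41L4A-AS1, had log2 fold changes from -0.39 in SNHG22 to 0.35 in SNHG19. Among these, SNHG10, host of SCARNA13, and SNHG16 were those whose groups did not overlap, SNHG10 at 8.12 and 8.77 TPM in control and 9.39 and 10.5 TPM in oeDAZL, and SNHG16 at 37.3 and 42.6 TPM in control and 43.5 and 44 TPM in oeDAZL. SNHG19, host of SNORD60, had a ratio of 1.27 and overlapping groups. It was at 16.9 and 10.8 TPM in control and 18.5 and 16.7 TPM in oeDAZL, so that the controls spanned more than the gap between the group means. Its log2 fold change was 0.66 without control replicate 1 and 0.052 without control replicate 2. Without control replicate 2, SNHG11 was at -0.37, SNHG16 at 0.225, SNHG22 at -0.77 and EPB41L4A-AS1 at -0.38, each farther from 0 than with all libraries. SNHG3 was at 0.22 without control replicate 1. Over the tested hosts the median relative SD was 7.88% between the control replicates and 3.83% between the oeDAZL replicates, and for 14 hosts the controls differed from each other by more than the group means did on the log2 scale.

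Hosts were also compared by the kind of small RNA they carry. The 10 tested hosts of box C/D snoRNAs alone had a median level of 92.9 TPM, the 10 of box H/ACA snoRNAs alone 26.8 TPM, and the 4 of Cajal body RNAs 5.20 TPM with a range of 1.81 to 9.20 TPM. The median log2 fold change was 0.04 for the box C/D hosts and 0.11 for the box H/ACA hosts. Of the box H/ACA hosts 5 passed the unadjusted threshold (DANCR, SNHG7 and SNHG17 upward, SNHG8 and SNHG9 downward), of the box C/D hosts 1 (ZFAS1, downward), and of the Cajal body hosts 0, where 5.02% of all tested genes passed upward and 15.2% downward. The 3 hosts that carry both box C/D and box H/ACA snoRNAs, GAS5, SNHG12 and SNHG25, are in none of these groups, and SNHG25 passed upward. The difference between the kinds was not tested. By start, the 4 hosts with the TOP motif at the canonical start had a median level of 204 TPM and a median log2 fold change of -0.03, with 1 of 4 higher, and the 23 without it had 16.8 TPM and 0.08, with 14 higher. SNHG29 and GAS5 lack the motif at their RefSeq start, so this split depends on which annotated start is used.

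The small RNAs themselves were listed in part. Of the 144, 124 had an entry of the same name and place in the table, 46 of these were at 0 in every library, and 28 had a mean of at least 1 TPM. A library of long RNA captures such short RNAs poorly, and the 28 belong to 14 hosts, with 13 inside SNHG14. In oeDAZL 12 were higher and 16 lower, with a median log2 fold change of -0.19. At an unadjusted p of at most 0.05 in limma 2 rose and 6 fell, or 8 of 28, where 20.2% of all tested genes passed, 5.02% upward and 15.2% downward. It was 4 and 2 with quantile normalization, beside 8.4% and 9.07% of all genes. At a mean of at least 5 TPM it was 1 and 1, beside 6.23% and 16.9%. Of the 28, 17 had the sign of their host, and of the 8 past the threshold 3 did.

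The ends of the 2 box C/D snoRNAs that passed the test outside SNHG14 are shown because their boxes identify them, 5′ to 3′ on hg38. Capitals mark the C box, searched as GTGATGA or ATGATGA, in the first 30 bases and the D box, searched as CTGA, in the last 30 bases, on the strand of the host.
SNORD104 first bases (chr17:64146078-64146107, plus strand): ggcctgctGTGATGAcattccaattaaagc
SNORD104 last bases (chr17:64146128-64146157, plus strand): gggtgatgcgaactggagtCTGAgcctgcc
SNORD12B first bases (chr20:49280313-49280342, plus strand): cttcctgctggcatatATGATGActtagct
SNORD12B last bases (chr20:49280386-49280415, plus strand): ccagtttctgtCTGAtatgccagcttgagc

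SNORD104, in SNHG25, rose together with its host. It was at 8.40 and 9.53 TPM in control and 18.3 and 13.1 TPM in oeDAZL, a log2 fold change of 0.73 (standard error 0.17, adjusted p = 0.116 in limma). SNORA50C, in the exon of the same host, was at 0.332 and 0.230 TPM in control and 0.0400 and 0.0572 TPM in oeDAZL, below the level needed for the test and in the other direction. SNORD12B, in ZFAS1, fell like its host, from 4.54 and 3.87 TPM to 2.45 and 2.98 TPM, a log2 fold change of -0.49 (standard error 0.18, adjusted p = 0.217), and it did not pass without control replicate 1 (-0.39), oeDAZL replicate 1 (-0.39) or oeDAZL replicate 2 (-0.59). SNORD12C in the same host was at 1.75 and 2.01 TPM in control and 0.889 and 1.5 TPM in oeDAZL (log2 fold change -0.41, adjusted p = 0.398).

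In SNHG17 and DANCR a small RNA and its host differed in sign. SNORA71A, in SNHG17, fell from 4.46 and 1.80 TPM in control to 0.724 and 0.324 TPM in oeDAZL, while SNHG17 rose. The log2 fold change of SNORA71A was -1.37 (standard error 0.37, adjusted p = 0.139 in limma), and -0.89 without control replicate 1. Its oeDAZL mean was 0.524 TPM, so it met the 1 TPM filter only through control. SNORA71C of the same host, with the sign of the host, was at 1.58 and 0.691 TPM in control and 0.962 and 3.81 TPM in oeDAZL. The SNORA71 family members are similar in sequence, and uniquely mapped reads were kept, so that reads that fit several members would be missing and each value is uncertain. SNORA26, in DANCR, was at 6.89 and 12.7 TPM in control and 5.58 and 6.11 TPM in oeDAZL (log2 fold change -0.60, adjusted p = 0.263), and this was -0.21 without control replicate 2 and passed at -1.0 without control replicate 1. SNORD123, in SNHG18 and like it in sign (0.02 for the host), was at 1.24 and 1.99 TPM in control and 2.52 and 3.06 TPM in oeDAZL (log2 fold change 0.55, adjusted p = 0.26), and it passed at 0.75 without control replicate 2.

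**Figure D3:**
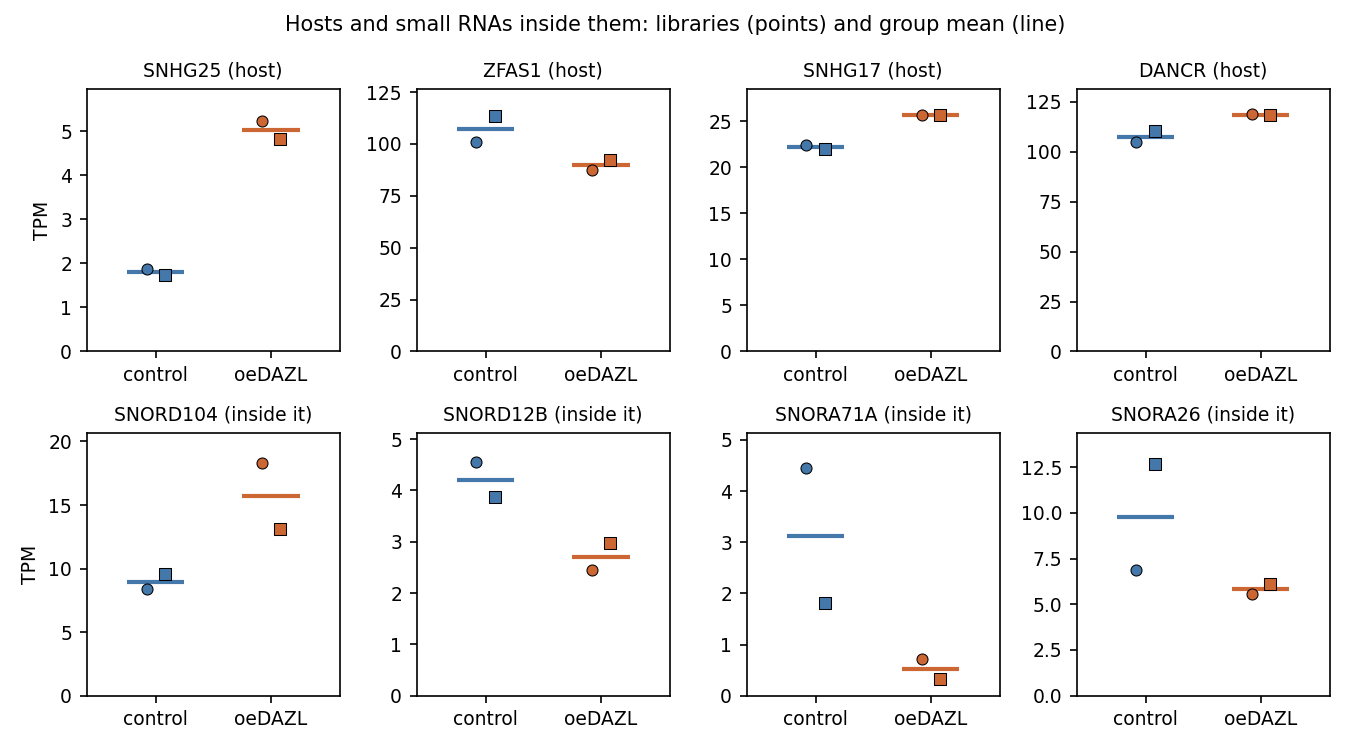
TPM of 4 host lncRNAs (upper row) and of a small RNA inside each (lower row) in the control and oeDAZL libraries, with replicate 1 as a circle, replicate 2 as a square, a line at the group mean, and each axis starting at 0. SNHG25 and SNORD104 are both higher in oeDAZL, ZFAS1 and SNORD12B are both lower, and for SNHG17 with SNORA71A and DANCR with SNORA26 the host is higher and the small RNA lower.

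The SNORD116 copies make up the 13 small RNAs of SNHG14 with a mean of at least 1 TPM. Their summed level was 47.7 and 42.3 TPM in control and 37.7 and 39.2 TPM in oeDAZL, while that of the host SNHG14 was 142 to 146 TPM in control and 151 to 153 TPM in oeDAZL. At an unadjusted p of at most 0.05, 4 fell (SNORD116-1, SNORD116-2, SNORD116-8 and SNORD116-18) and 1 rose (SNORD116-13), where 15.2% of all tested genes fell and 5.02% rose. The median log2 fold change was -0.24 over the 13. SNORD116-8 (means of 1.71 TPM in control and 0.464 TPM in oeDAZL) and SNORD116-13 (0.725 and 1.92 TPM) met the 1 TPM filter only through their higher group. SNORD116-2 was at 3.91 and 3.99 TPM in control and 1.94 and 0.911 TPM in oeDAZL, a log2 fold change of -1.06 (standard error 0.26, adjusted p = 0.12 in limma). SNORD116-1 was at 6.17 and 8.05 TPM in control and 4.86 and 4.62 TPM in oeDAZL, a log2 fold change of -0.49 (adjusted p = 0.193). Of the 5 calls, those of SNORD116-1, SNORD116-8, SNORD116-13 and SNORD116-18 were lost without at least 1 of the libraries, with SNORD116-1 at -0.32 and SNORD116-13 at 0.40 without control replicate 2 and SNORD116-8 at -0.55 and SNORD116-18 at -0.51 without oeDAZL replicate 1. The copies are similar in sequence, and reads that fit several of them would be missing among uniquely mapped reads, so the value of a single copy is uncertain.

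The other small RNAs with a mean of at least 1 TPM did not pass. Besides those already given, they were 8 further SNORD116 copies (SNORD116-6, SNORD116-7, SNORD116-9, SNORD116-14, SNORD116-15, SNORD116-19, SNORD116-23 and SNORD116-24), SNORD1B, SNORD99, SNORA60, SNORD60, SNORA13 and SCARNA13, with log2 fold changes from -0.65 in SNORD116-6 to 0.45 in SNORD60, together with SNORD30 and SNORA73B. SNORD30 in SNHG1 was at 18.8 and 14.1 TPM in control and 12.7 and 13.5 TPM in oeDAZL (log2 fold change -0.30, adjusted p = 0.312 in limma), and it passed at -0.49 without control replicate 2. SNORA73B, one of the U17 snoRNAs in SNHG3 that act in cleavage of the ribosomal RNA precursor, was at 11.2 and 10.8 TPM in control and 9.23 and 9.48 TPM in oeDAZL (log2 fold change -0.22, adjusted p = 0.326). Both had the oeDAZL libraries below both control libraries without passing the test.

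For scale, the hosts were set beside 3 other groups of genes. The 1828 other lncRNA genes tested had a median log2 fold change of -0.17 with 27.1% higher in oeDAZL, and 35 of them rose and 265 fell at an unadjusted p of at most 0.05. The 251 protein-coding genes with a small RNA inside had a median of -0.03 with 41.8% higher, 15 rising and 33 falling. The 82 ribosomal protein genes had a median of 0.00 with 50% higher, 4 rising and 0 falling (4.88% past the threshold). The host lncRNAs had 55.6% higher and a median of 0.06, which was -0.01 without oeDAZL replicate 1. The groups also differ in level, with medians of 29.7 TPM for the hosts, 2.47 TPM for other lncRNA genes, 58.4 TPM for the protein-coding hosts and 1050 TPM for ribosomal protein genes, and the differences between the groups were not tested.

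**Figure D4:**
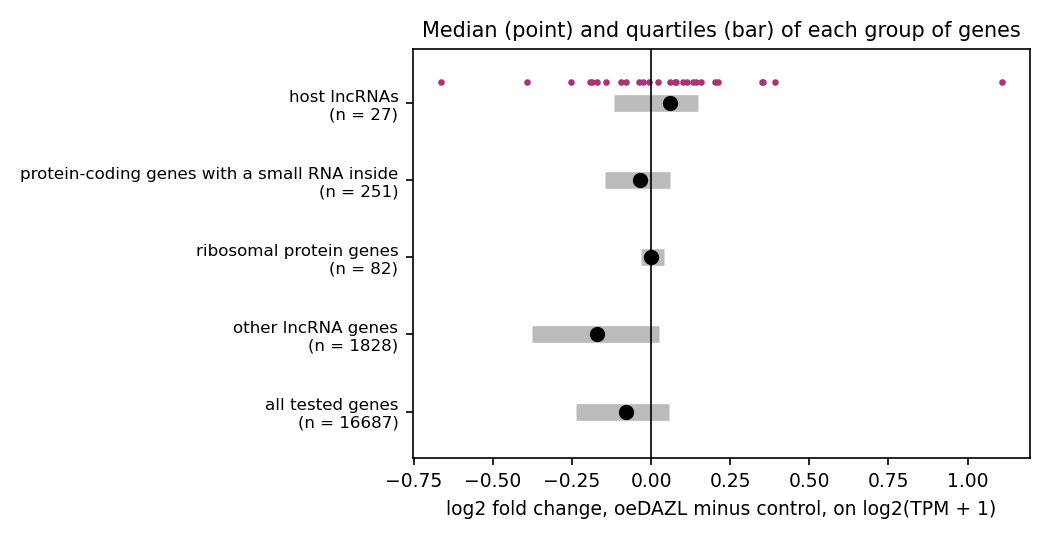
Log2 fold change of oeDAZL over control on the log2(TPM + 1) scale, with a point at the median and a bar from the lower to the upper quartile, for the 27 host lncRNAs (small dots show each host), 251 protein-coding genes with a small RNA inside, 82 ribosomal protein genes, 1828 other lncRNA genes and all 16687 tested genes. The medians stand at 0.06, -0.03, 0.00, -0.17 and -0.08, and the bar of the ribosomal protein genes is the narrowest.

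The proteins that bind and mature snoRNAs were listed as the other genes of the pathway, and their counts stand beside 5.02% of all tested genes that rose and 15.2% that fell. Of the 4 box C/D core proteins 1 rose and 0 fell, with a median log2 fold change of 0.10. SNU13, which binds the C and D boxes first, was at 113 and 108 TPM in control and 122 and 125 TPM in oeDAZL (log2 fold change 0.17, adjusted p = 0.196 in limma), and NOP58, a core scaffold, had a log2 fold change of 0.11 (adjusted p = 0.318). Of the 4 box H/ACA core proteins 1 rose and 0 fell, with a median of 0.17. DKC1, the pseudouridine synthase, was at 69.6 and 65.3 TPM in control and 83.5 and 77.9 TPM in oeDAZL, a log2 fold change of 0.25 (standard error 0.07, adjusted p = 0.144), and NOP10, its small partner, had 0.19 (adjusted p = 0.271) and passed at 0.29 without control replicate 2.

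Of 9 tested assembly factors 1 rose and 0 fell. RUVBL1, an ATPase of the assembly complex, was at 90.5 and 92.8 TPM in control and 108 and 106 TPM in oeDAZL, a log2 fold change of 0.22 (adjusted p = 0.13 in limma). SHQ1, the chaperone of DKC1, had 0.20 (adjusted p = 0.275). Of 10 factors of intron debranching and snoRNA end processing 0 passed at an unadjusted p of at most 0.05 in limma, with a median of 0.00, and the lowest p were those of MPHOSPH6 (log2 fold change 0.19, adjusted p = 0.302) and EXOSC10 (-0.07, adjusted p = 0.523, and 0.029 with median-of-ratios scaling), both of the nuclear exosome. Of the 3 genes that rose, SNU13 did not pass without control replicate 2, oeDAZL replicate 1 or oeDAZL replicate 2 (0.13 to 0.18), DKC1 without oeDAZL replicate 1 (0.21) and RUVBL1 without oeDAZL replicate 1 (0.21) or 2 (0.23). Of these 4 lists, 0 genes changed by 2-fold and 0 had an adjusted p under 0.05 in limma.

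Nonsense-mediated decay and the TOP motif were examined because both are known to bear on host RNAs. Of 16 decay factors 0 rose and 2 fell, where 15.2% of all tested genes fell, with a median log2 fold change of -0.07 beside -0.08 over all genes. SMG9, a regulator of the SMG1 kinase, was at 19.4 and 17.2 TPM in control and 14.4 and 14 TPM in oeDAZL (log2 fold change -0.34, adjusted p = 0.168 in limma), and SMG5, which recruits decay enzymes, was at 109 and 95.8 TPM in control and 87.4 and 86.5 TPM in oeDAZL (-0.23, adjusted p = 0.185). Of 10 protein-coding transcripts known as decay substrates 2 rose and 0 fell, with a median of 0.01. SRSF2, a splicing factor, had a log2 fold change of 0.17 (adjusted p = 0.195), and GADD45B, a stress-response gene, was at 32.8 and 49.0 TPM in control and 58.8 and 54.0 TPM in oeDAZL (0.48, adjusted p = 0.213). Of 10 regulators of TOP RNAs 1 rose, CNBP (0.18, adjusted p = 0.165), and 1 fell, LARP1 (-0.14, adjusted p = 0.226), the protein that binds the cap and the pyrimidine run. GADD45B was 0.20 and SMG5 -0.14 without control replicate 1, and neither passed. Each of these 6 calls was lost without oeDAZL replicate 1, and 0 of the 6 genes had an adjusted p under 0.05.

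Markers of other cell types were counted beside the same 5.02% of all tested genes that rose and 15.2% that fell. Of 7 tested markers of mesoderm and mesenchyme 1 rose and 3 fell, of 8 of amnion and trophoblast 0 rose and 4 fell, of 5 neural markers 1 rose and 2 fell, and of 6 endoderm markers 0 rose and 1 fell. Among those that fell, TBXT and PAX6 had oeDAZL means of 0.432 and 0.327 TPM and met the 1 TPM filter only through control. Of 5 tested pluripotency markers 2 rose (POU5F1 and TDGF1) and 0 fell. The other 3 had log2 fold changes below 0, and the list median was -0.11. Of 9 tested PGC markers 1 rose (PDPN) and 0 fell, while the other 8 had log2 fold changes below 0 and the median was -0.12. The summed level of the mesoderm and mesenchyme list was 2303 and 2199 TPM in control and 1955 and 1982 TPM in oeDAZL, that of the amnion and trophoblast list 2652 and 2418 TPM in control and 2409 and 2459 TPM in oeDAZL. The neural list, most of whose TPM came from NES and TUBB3 and whose median log2 fold change was -0.41, summed to 451 and 588 TPM in control and 697 and 643 TPM in oeDAZL, the endoderm list to 272 and 166 TPM and to 169 and 210 TPM, the pluripotency list to 546 and 495 TPM and to 497 and 477 TPM, and the PGC list to 158 and 176 TPM and to 171 and 170 TPM. No marker of these lists was at 0 in every library, and their part in the differences of the hosts was not tested.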

How the data were processed

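The values used are TPM per gene, which the authors deposited for 2 control and 2 oeDAZL RNA-seq libraries. Their methods give adaptor removal with Trim Galore, mapping to hg38 with HISAT2 (2.1.0 in the submitters' processing notes), selection of uniquely mapped reads and quantification with StringTie (2.1.4). The annotation release and the use of strand are not given in the sources used here. Of 65003 entries, 45 copies on chromosome Y and 18 repeats were left out. Genes with a mean of at least 1 TPM were fitted on log2(TPM + 1) with limma 3.58.1 in R 4.3.3, with its trend, two-sided, no covariates and Benjamini-Hochberg adjustment over all 16687 genes. An exact permutation test of 2 against 2 cannot give a p under 0.333. The fit was tested on simulated data of 16687 genes, all with the same spread. It recovered 100% of 200 genes changed by 2 on the log2 scale, and 5.21% of the unchanged genes passed limma's unadjusted p of 0.05. The largest host change was 1.11, so this recovery does not give the power for changes like those of the hosts.

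Small RNAs were placed in hosts by RefSeq positions within GENCODE 44 spans on hg38, and matched to the table by name and position. Their strand was not compared with that of the host. The starts come from GENCODE 44 and RefSeq. The host genes, lists and tests were chosen with earlier results of these data known. Hosts are described where they passed an unadjusted p of 0.05, were among the 10 highest, or had separate groups and a fold change over 1.2. From each pathway list the 2 genes with the lowest p are named. SNHG3, SNHG4, SNHG10, SNHG16, SNHG19 and others are named outside this rule after their values were seen. Alternatives were a pseudocount of 0.1, no filter, a mean of at least 5 TPM, median-of-ratios and quantile scaling, removal of mitochondrial genes, a replicate block, no trend, other thresholds and leaving out each library.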

Additional observations from a re-analysis of the deposited data

How the results depend on the processing

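The median log2 fold change of the tested hosts, 0.06, ran from -0.01 without oeDAZL replicate 1, where its sign turned, to 0.16 with median-of-ratios scaling, where the median of all genes was 0.01. Counts moved. Over all genes, 21 higher and 94 lower at an unadjusted p of at most 0.05 and 2-fold became 55 and 267 with a pseudocount of 0.1, 6 and 23 at a mean of at least 5 TPM, 41 and 52 with quantile normalization, 4 and 6 with an adjusted p under 0.05 and no fold rule, and 35 to 87 and 85 to 235 with 1 library left out. The hosts were 4 higher and 3 lower at an unadjusted p of at most 0.05 with no fold rule, beside 5.02% and 15.2% of all genes. At a mean of at least 5 TPM (5 hosts untested) they were 2 and 2, beside 6.23% and 16.9% of all genes. With median-of-ratios scaling they were 9 and 1 (all genes 11.2% and 8.2%), and with quantile normalization 7 and 1 (8.4% and 9.07%). Without limma's trend they were 1 and 1 (3.39% and 13.9%). With an adjusted p they were 0 and 0, where 0.0599% of all genes passed. At 2-fold they were 1 and 0 (0.126% and 0.563%). In fits with 1 library left out, a lone library is assumed to vary like the others. The cause of these shifts was not tested. With the replicate block, the replicate numbers taken as pairs, hosts were 1 higher and 2 lower, beside 4.02% and 12.6% of all genes. Same-numbered libraries did not deviate together (r = -0.104 over 16687 genes, which are not independent). With the numbers crossed, chosen after seeing the data, hosts were 3 higher and 4 lower by p alone, beside 6.35% and 17.7% of all genes. By p and 2-fold, all genes were 28 and 107. Of the settings tried for single hosts, the crossed numbers aside, 248 kept direction and side of the threshold, 33 lost and 18 gained it, and 20 turned direction. Those that turned were GAS5 (0.063 with median-of-ratios scaling, -0.12 to 0.045 with 1 library left out), SNHG5 (0.0068) and SNHG12 (0.073) with median-of-ratios scaling, SNHG12 (0.048) and SNHG26 (0.089) with quantile normalization, and SNHG20 (0.083 and 0.12 with these 2 scalings, and 0.0093 without mitochondrial genes). With 1 library left out, SNHG20 ran from -0.094 to 0.082, SNHG26 from -0.36 to 0.20, EPB41L4A-AS1 from -0.38 to 0.095, SNHG3 from -0.020 to 0.22, SNHG18 from -0.014 to 0.057, SNHG1 from -0.012 to 0.16 and SNHG4 from -0.087 to 0.31. EXOSC10 was 0.029 with median-of-ratios scaling. Depth is unknown, so hosts of a few TPM are the least certain.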
